A study of Homo sapiens with 9 samples.

Results

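The 8 genes described here were MAP1B and 7 other genes for proteins that bind microtubules or tubulin, MAP1A, MAP1S, MAP2, MAP4, MAP7, STMN1 and DCLK1. They were picked by symbol from a count table of 60199 gene symbols, and the list was drawn up because MAP1B counts were nearly lost in the line M1B26. The MAP1B values that separate M1B26 from the other lines therefore chose the list and are given without a test. The other 7 genes were listed for what they encode. All 8 had counts, and all 8 passed the filter on low counts that left 15717 genes for testing.

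The libraries were poly-A RNA-seq of MCF10A, a non-malignant human mammary epithelial cell line, and of lines transformed from it. CT was untreated MCF10A, with no BMP2 or IL6 added to its medium. MC26 was derived from unsorted MCF10A under long exposure to BMP2 and IL6, and M1B26 from cells sorted for the BMP receptor BMPR1B, taken through soft-agar clones and expanded. The study reports that the sorted cells transformed faster, within a few weeks. Both transformed lines were kept in medium with BMP2 and IL6, whereas CT was not, so line and supplement cannot be told apart in comparisons with CT. Each line had 3 libraries, described as independent cultures, and the p-values measure the spread between these samples, not between independently derived lines. Whether the M1B26 cultures came from the same or from different soft-agar clones is not given in the labels, so their spread may hold differences between clones.

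Microtubules are hollow polymers of alpha- and beta-tubulin that grow and shrink at their ends. Structural microtubule-associated proteins coat and stabilise the lattice, whereas stathmins bind free tubulin dimers and favour shrinkage. MAP1B, MAP1A and MAP2 are best known from neurons, where they shape axons and dendrites, while MAP4, MAP1S, MAP7 and STMN1 are made in many dividing cell types, epithelia included.

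Total counts per library ran from 21425118 to 80076597. Levels are given as counts per 1000000 (CPM) scaled with TMM factors, and a floor of 3 counts stood for 0.0366 to 0.131 CPM, which covers counting error only. Log2 CPM correlated over genes at 0.986 to 0.995 within lines and at 0.951 to 0.975 between them, with the widest spread among those of MC26. All 6 basal mammary markers (KRT5, KRT14, KRT17, TP63, ITGA6 and EGFR) were at 1 CPM or more in each line. Of 7 neuronal markers 0 reached 1 CPM, and their summed level was 0.786 to 1.11 CPM in CT, 0.588 to 1.05 in MC26 and 0.45 to 0.609 in M1B26. ELAVL3, ELAVL4 and NEFM had no count in any line, and RBFOX3 had none in CT and MC26. Library batches are not given in the labels and cannot be told apart from the lines.

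The promoters of MAP1B, MAP1A and MAP2 are printed because these genes had the largest fold changes of the list. Each window holds 250 bases before and 50 from the RefSeq start on, on GRCh38.p14, with matches to GGGCGG on either strand in capitals. The MAP1B window is chr5:72107225-72107524 on the plus strand, that of MAP1A is chr15:43510704-43511003 on the plus strand, and that of MAP2 is chr2:209661246-209661545 on the plus strand. GENCODE places the MAP1B start at 72107234, so nearly all of that window, its motif matches included, lies inside the GENCODE gene span, and the whole MAP2 window does. The starts used in these cells are not known.
MAP1B: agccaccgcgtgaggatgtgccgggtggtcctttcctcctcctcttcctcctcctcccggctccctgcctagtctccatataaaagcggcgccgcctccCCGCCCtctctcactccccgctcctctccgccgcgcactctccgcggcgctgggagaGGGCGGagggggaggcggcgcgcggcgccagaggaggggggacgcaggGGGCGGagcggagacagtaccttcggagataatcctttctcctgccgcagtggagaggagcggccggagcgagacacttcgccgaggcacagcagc
MAP1A: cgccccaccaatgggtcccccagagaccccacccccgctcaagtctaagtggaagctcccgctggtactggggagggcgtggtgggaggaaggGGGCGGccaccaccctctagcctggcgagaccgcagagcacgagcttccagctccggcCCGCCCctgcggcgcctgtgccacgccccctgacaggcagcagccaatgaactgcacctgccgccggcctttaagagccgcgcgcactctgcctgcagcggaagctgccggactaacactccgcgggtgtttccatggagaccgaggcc
MAP2: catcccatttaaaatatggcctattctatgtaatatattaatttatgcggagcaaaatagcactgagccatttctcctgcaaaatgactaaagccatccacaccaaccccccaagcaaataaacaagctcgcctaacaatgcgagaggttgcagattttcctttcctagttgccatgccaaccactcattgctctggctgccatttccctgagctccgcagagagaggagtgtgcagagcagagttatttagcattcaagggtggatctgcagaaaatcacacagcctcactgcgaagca
The windows differ in CpG content. MAP1B holds 31 CpG dinucleotides, more than 79.3% of the 35116 promoters in the RefSeq table, at 70% GC. MAP1A holds 23 CpG, more than 64.2% of promoters. MAP2 holds 5, more than 29.6% of promoters, and the median promoter holds 14. GGGCGG occurred 3 times in MAP1B, 2 times in MAP1A and 0 times in MAP2, and 45% of all promoters hold it. TATAAA occurred once, in MAP1B, against 11.5% of all promoters. GGCGCC was found 2 times in MAP1B and 1 time in MAP1A (19.2% of all promoters hold it), CCAAT 2 times in MAP1A (34.6%), and TTCNNNGAA in none of the 3 windows (7.66%). All motifs were searched on both strands, and none of these matches overlapped another. A match of these letters is a description of the window and says nothing of binding.

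MAP1B, whose long polyprotein is cleaved into a heavy and a light chain and which is known for axon growth, was expressed at a low level in CT and MC26 and was close to the floor in M1B26. Its level was 6.03, 8.21 and 8.50 CPM in CT replicates 1 to 3, from 422, 188 and 697 counts. MC26 held 12.7, 11.5 and 7.01 CPM, from 510, 438 and 298 counts. M1B26 held 0.135, 0.0947 and 0.166 CPM, from 6, 4 and 9 counts. Every M1B26 library lay far below every library of the other lines, while CT and MC26 overlapped, since MC26 replicate 3 fell between CT replicates 1 and 2. The 19 M1B26 counts together gave 0.135 CPM with an exact Poisson 95% interval of 0.0813 to 0.211, which covers counting error only. The same pooled value was 7.48 CPM (7.08 to 7.89) in CT and 10.3 CPM (9.74 to 10.9) in MC26. In the fit MAP1B was 55.1-fold lower in M1B26 than in CT and 75.6-fold lower than in MC26, log2 fold changes of -5.78 and -6.24. In bulk RNA fewer cells that express MAP1B and less MAP1B RNA per cell cannot be told apart.

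The difference in MAP1B between MC26 and CT was not used by the choice of the list and was tested. The log2 fold change was 0.46 (95% interval 0 to 0.91, edgeR quasi-likelihood test, adjusted p 0.105) and was not past the threshold. It was 0.68 without MC26 replicate 3 (edgeR adjusted p 0.00621). MAP1B lies on chromosome 5 from 72107234 to 72209565 on the plus strand of GRCh38, and none of its exonic bases is shared with another annotated gene.

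**Figure D1:**
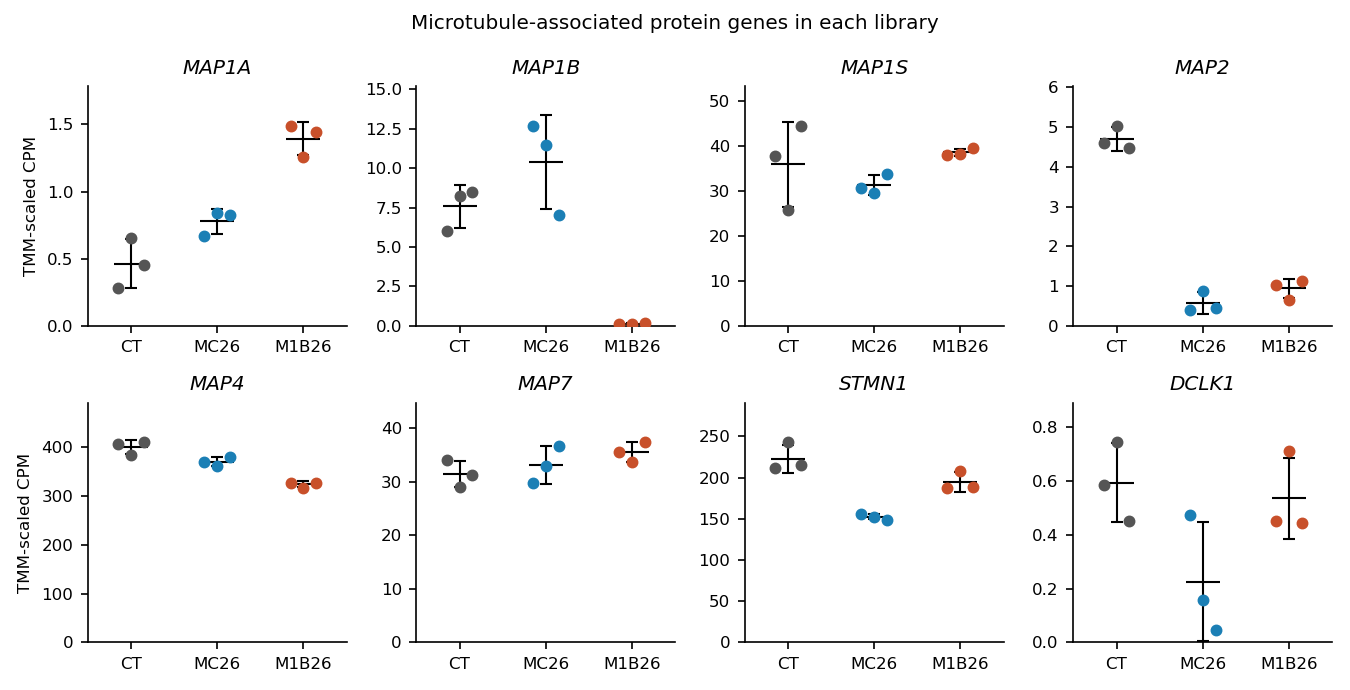
TMM-scaled CPM (vertical axes, each from 0) of the 8 genes in each library, with points for libraries and black lines for mean and SD of the 3 libraries of a line. MAP1B sits at 0.166 CPM or less in all M1B26 libraries, MAP2 at 1.13 or less in both transformed lines, and MAP1A is highest in M1B26.

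The 8 genes did not move together. In MC26 against CT 3 of 8 were called at an adjusted p under 0.05, 1 higher (MAP1A) and 2 lower (MAP2 and STMN1). Of all genes tested 38.7% were called there, 18.8% higher and 19.9% lower. The median log2 fold change of the 8 was -0.16, against 0 for all genes. In M1B26 against CT 4 of the 7 genes other than MAP1B were called, 1 higher (MAP1A) and 3 lower (MAP2, MAP4 and STMN1), with a median of -0.1 against 0. The background was 48.9% called, 25.2% higher and 23.7% lower. In M1B26 against MC26 3 of the 7 were called, 2 higher (MAP1A and STMN1) and 1 lower (MAP4), with a median of 0.35 against 0. There 39.5% of all genes were called, 21.2% higher and 18.4% lower. With so many genes called in each comparison, these shares lie near the background and show nothing particular to the list.

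**Figure D2:**
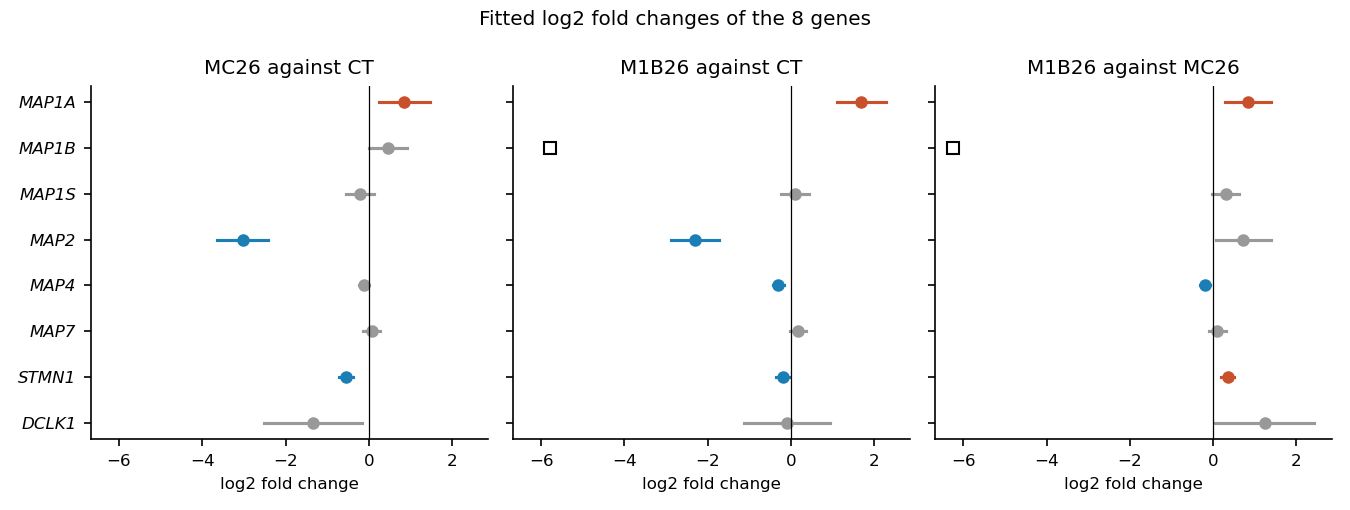
Fitted log2 fold changes (horizontal axes) of the 8 genes in the 3 comparisons, with 95% intervals as lines, red for genes called higher, blue for lower and grey for not called. The open squares are MAP1B in M1B26, at -5.78 and -6.24, drawn without an interval because these values chose the list, and MAP2 at -3.02 and -2.30 is the lowest of the tested values.

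MAP1A, the MAP1B relative of mature neurons, was highest in M1B26, the line in which MAP1B was lowest. It stood at 0.286, 0.655 and 0.451 CPM in the CT libraries, 0.671, 0.837 and 0.824 in those of MC26 and 1.49, 1.25 and 1.44 in those of M1B26. These levels rest on 15 to 78 counts per library, and the 3 lines did not overlap. MAP1A was 3.24-fold higher in M1B26 than in CT (log2 fold change 1.69, SE 0.27, edgeR adjusted p 0.000393) and kept its call in every fit that left out a library. It was also higher in M1B26 than in MC26 (0.84, SE 0.25, edgeR adjusted p 0.0214) and in MC26 than in CT (0.85, SE 0.28, edgeR adjusted p 0.0326). Those smaller differences were not robust. Against CT the value for MC26 was 0.57 without CT replicate 1 (edgeR adjusted p 0.146) and lost its call in 3 other such fits, and M1B26 against MC26 lost it in 4 of 9 (edgeR adjusted p up to 0.0723).

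MAP1S, the short and widely made member that binds the autophagy protein LC3, was the most abundant of the family in each line. It held 37.7, 25.8 and 44.5 CPM in the CT libraries, 30.7, 29.5 and 33.7 in those of MC26 and 38.1, 38.3 and 39.5 in those of M1B26. CT replicate 2 was the lowest library of all 9, and CT overlapped both other lines. The log2 fold change was -0.22 in MC26 against CT (95% interval -0.55 to 0.12, edgeR adjusted p 0.283) and 0.09 in M1B26 against CT (-0.24 to 0.42, edgeR adjusted p 0.654). Without CT replicate 2 the first was -0.39 (edgeR adjusted p 0.00636). M1B26 and MC26 did not overlap, but their difference of 0.30 (-0.03 to 0.63, edgeR adjusted p 0.131) was not past the threshold. It passed in the fit of those 6 libraries alone (0.30, edgeR adjusted p 0.00901) and without CT replicate 2 (0.29, edgeR adjusted p 0.0126). MAP1S shares 217 exonic bases with an lncRNA on the other strand, and whether the counting used strand is not given in the sources used here.

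Per kilobase of exon, the scale on which levels of different genes can be set side by side, MAP1B was 7.96 ± 2.7% of the MAP1 family in CT and 11.5 ± 3.49% in MC26 (SD, n = 3). It was 0.132 ± 0.0337% in M1B26, a share that follows from the values that chose the list. MAP1S made up 91.4 ± 3.08%, 87.5 ± 3.46% and 98.2 ± 0.166% in the same order, and MAP1A 0.6 ± 0.38%, 1.01 ± 0.133% and 1.64 ± 0.14%. Shares of a sum depend on each other, so those of MAP1S and MAP1A in M1B26 also carry the low MAP1B level. The MAP1S level itself was 7.3 ± 1.92 CPM per kb in CT and 7.83 ± 0.152 in M1B26. The summed level of the family was 7.95 ± 1.9, 7.25 ± 0.255 and 7.97 ± 0.157 CPM per kb, so its means differed by less than the spread in CT. The rise of MAP1A, from 0.0436 to 0.131 CPM per kb between CT and M1B26, was smaller than the fall of MAP1B from 0.605 to 0.0105.

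**Figure D3:**
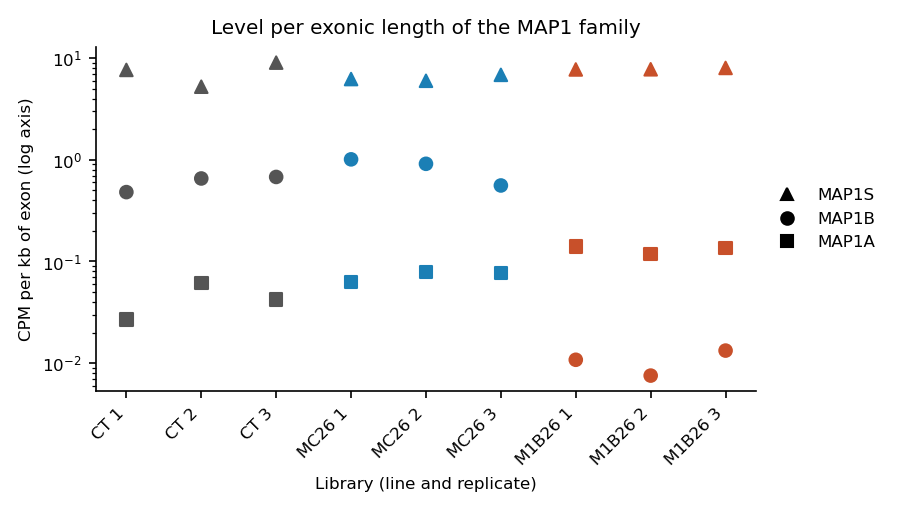
Levels per kilobase of exon (vertical log axis, CPM per kb) of MAP1S (triangles), MAP1B (circles) and MAP1A (squares) in each of the 9 libraries. MAP1S lies on top throughout, and MAP1B lies above MAP1A in CT and MC26 and below it in M1B26, with means of 0.0105 and 0.131 CPM per kb there.

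MAP2, the dendritic protein of neurons and a relative of tau, was lower in both transformed lines. It stood at 4.59, 5.02 and 4.47 CPM in CT, from 321, 115 and 366 counts. MC26 held 0.398, 0.889 and 0.447 CPM, from 16, 34 and 19 counts, and M1B26 held 1.04, 0.663 and 1.13 CPM, from 46, 28 and 61 counts. All CT libraries lay above all others, and the transformed lines overlapped. MAP2 was 8.11-fold lower in MC26 than in CT (log2 fold change -3.02, SE 0.28, edgeR adjusted p 1.58e-05) and 4.92-fold lower in M1B26 (-2.30, SE 0.26, edgeR adjusted p 4.15e-05). Leaving out single libraries gave -3.45 to -2.81 and -2.45 to -2.10, all of them called. Between M1B26 and MC26 the difference was 0.72 (95% interval 0.06 to 1.39, edgeR adjusted p 0.0788), not past the threshold. It was 1.16 without MC26 replicate 2 (edgeR adjusted p 0.0124) and 0.92 without M1B26 replicate 2 (edgeR adjusted p 0.0444). The summed level of 3 endothelial markers (PECAM1, CDH5 and VWF) was likewise higher in CT, at 4.85 to 5.32 CPM against 0.0995 to 0.541 in MC26 and 0.497 to 1.74 in M1B26, nearly all of it PECAM1. Its part in the MAP2 result was not tested.

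MAP4, the relative of MAP2 and tau that is made in most tissues outside the nervous system, was far more abundant. Its level was 407, 385 and 410 CPM in the CT libraries, 370, 362 and 380 in those of MC26 and 327, 317 and 328 in those of M1B26. The 3 lines did not overlap, in the order CT, MC26, M1B26, and the steps were small. MAP4 was lower in M1B26 than in CT (log2 fold change -0.31, SE 0.06, edgeR adjusted p 0.00128) and than in MC26 (-0.20, SE 0.06, edgeR adjusted p 0.0203). In MC26 against CT it was at -0.11 (95% interval -0.24 to 0.01, edgeR adjusted p 0.149). With offsets for gene length and GC content it was -0.12 in M1B26 against CT (edgeR adjusted p 0.0456). The difference between M1B26 and MC26 was less stable, at -0.08 with these offsets (edgeR adjusted p 0.185), and 4 of 9 fits without 1 library lost it (edgeR adjusted p up to 0.0748).

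MAP7, or ensconsin, which recruits the motor kinesin-1 to microtubules, was called in none of the 3 comparisons. It held 34.0, 29.0 and 31.3 CPM in the CT libraries, 29.7, 32.9 and 36.7 in those of MC26 and 35.6, 33.7 and 37.4 in those of M1B26, and the lines overlapped. The log2 fold changes were 0.07 (95% interval -0.13 to 0.27, edgeR adjusted p 0.563) in MC26 and 0.17 (-0.03 to 0.37, edgeR adjusted p 0.137) in M1B26 against CT. Between the transformed lines it was 0.10 (-0.10 to 0.30, edgeR adjusted p 0.401). These intervals leave out a difference of more than 0.37. Its exons share 159 bases with the antisense gene MAP7-AS1.

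STMN1, which encodes stathmin, a binder of tubulin dimers, was lower in MC26 than in both other lines. Its level was 211, 243 and 215 CPM in the CT libraries, 155, 153 and 149 in those of MC26 and 188, 208 and 188 in those of M1B26. MC26 lay below all other libraries, and M1B26 lay below CT by a narrow gap. The log2 fold change was -0.55 in MC26 against CT (SE 0.07, edgeR adjusted p 0.000191) and 0.35 in M1B26 against MC26 (SE 0.07, edgeR adjusted p 0.00308), and both were called in every fit without 1 library. In M1B26 against CT it was -0.20 (SE 0.07, edgeR adjusted p 0.0432), and 7 of 9 such fits lost the call (edgeR adjusted p up to 0.145). STMN1 is often read with cell division, so 6 proliferation genes (MKI67, TOP2A, CCNB1, CDK1, PCNA and CCNA2) were summed beside it. They gave 1370 to 1600 CPM in CT, 1460 to 1780 in MC26 and 1270 to 1360 in M1B26, and the lower sum in M1B26 lay with MKI67, which was at -0.84 against CT (edgeR adjusted p 9.82e-05) and -1.04 against MC26 (edgeR adjusted p 4.91e-05). PCNA was higher than in CT in MC26 (0.28) and in M1B26 (0.29), and the other 4 were called in no comparison. The 1, 2 and 1 of 6 called in the 3 comparisons stand against 38.7%, 48.9% and 39.5% of all genes. The order of these sums was not that of STMN1, whereas the sum of 4 epithelial markers (CDH1, EPCAM, KRT8 and KRT18) was lowest in MC26 too, at 681 to 715 CPM against 969 to 1110 in CT and 944 to 1010 in M1B26. The part of either in the STMN1 result was not tested. STMN1 shares 66 exonic bases with MIR3917 on its own strand.

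DCLK1, a kinase with doublecortin domains that bind microtubules, was low in every line, and MC26 replicate 3 was under the floor. It held 0.586, 0.743 and 0.451 CPM in the CT libraries, 0.472, 0.157 and 0.0471 in those of MC26 and 0.451, 0.710 and 0.443 in those of M1B26. The counts were 41, 17 and 37 in CT, 19, 6 and 2 in MC26 and 20, 30 and 24 in M1B26. MC26 replicate 1 reached the level of the other lines and the other MC26 libraries lay below them. No comparison was past the threshold: -1.33 in MC26 against CT (95% interval -2.51 to -0.16, edgeR adjusted p 0.0705), -0.10 in M1B26 against CT (-1.12 to 0.93, edgeR adjusted p 0.879) and 1.24 in M1B26 against MC26 (0.05 to 2.42, edgeR adjusted p 0.0915). MC26 replicate 1 decided the outcome, since without it the first was -2.48 (edgeR adjusted p 0.00496) and the third was 2.39 (edgeR adjusted p 0.00635).

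Ordered by CPM per kb of exon, the 8 genes fell into a high and a low tier. In CT the means were 35.7 for STMN1, 26.7 for MAP4, 7.3 for MAP1S and 5.77 for MAP7, then 0.605 for MAP1B, 0.396 for MAP2, 0.0436 for MAP1A and 0.0413 for DCLK1. MAP1S and MAP7, and likewise MAP1A and DCLK1, overlapped between libraries of CT. In M1B26 the upper tier kept its order and the lower ran MAP1A (0.131), MAP2 (0.0796), DCLK1 (0.0372) and MAP1B (0.0105). In MC26 MAP4 (24.7) and STMN1 (24.4) overlapped, as did MAP1S and MAP7, and MAP1A and MAP2. STMN1 depended most on the length used: with its MANE Select transcript it stood at 155 CPM per kb in CT, against 43.4 for MAP4.

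To see whether the low MAP1B level was shared by its surroundings, the 4 nearest tested genes on each side were read. In M1B26 against CT 4 of these 8 were called, 1 higher and 3 lower, close to the background share. The nearest, MRPS27, a mitochondrial ribosomal protein gene whose start lies 108 kb beyond that of MAP1B, was at 0.17 (edgeR adjusted p 0.0619), and at 0.38 with the length and GC offsets (edgeR adjusted p 0.000535). PTCD2, at 213 kb, was at 0.03 (edgeR adjusted p 0.794). On the other side MCCC2, which encodes a subunit of methylcrotonyl-CoA carboxylase, was at -0.19 (edgeR adjusted p 0.0823), and BDP1, a subunit of TFIIIB, was lower by -0.75 (edgeR adjusted p 0.000156). TNPO1, a nuclear import receptor, was lower by -0.40 (edgeR adjusted p 0.00203), and FCHO2 was at -0.14 (edgeR adjusted p 0.225). GTF2H2 at 0.30 and GUSBP9 at -0.84 have near-identical copies and are uncertain. None of the 8 came near the -5.78 of MAP1B.

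**Figure D4:**
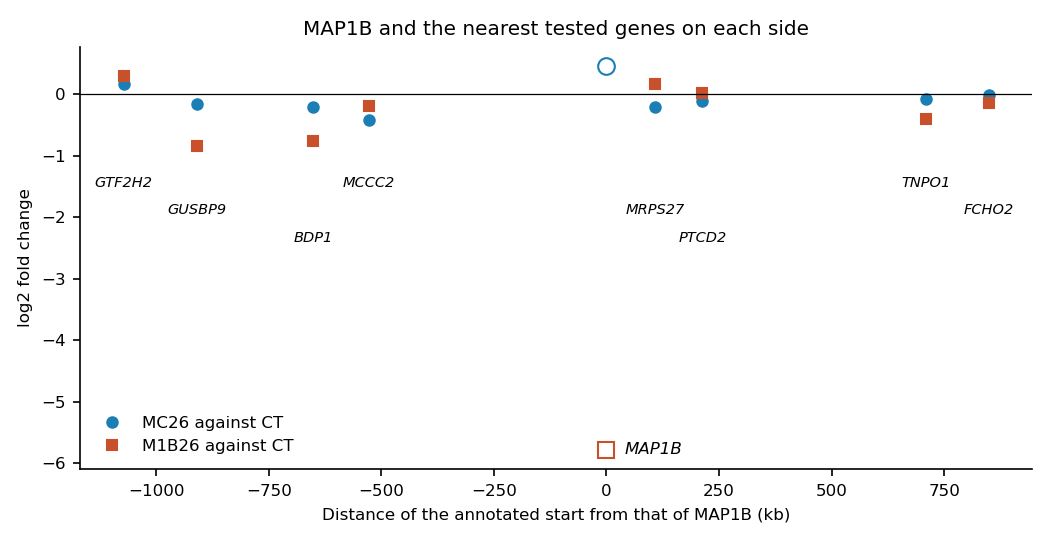
Log2 fold change against CT (vertical axis) of MAP1B, as open symbols, and of the 4 nearest tested genes on each side, by distance of their annotated starts from that of MAP1B in kb. Circles are MC26 and squares M1B26; the neighbours lie between -0.84 and 0.30 in M1B26, and MAP1B at -5.78.

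The genes whose pattern was most like that of MAP1B were ranked over the 9 libraries by Pearson correlation of log2 CPM, among 59 tested genes that differed between M1B26 and each other line by at least 2 in mean log2 CPM. The 5 leading genes were ADD2 (r 0.994), which encodes beta-adducin, ADGRG2 (0.988), ZNF302 (0.988), SHISAL1 (0.985) and ITGA4 (0.982), which encodes integrin alpha-4. The points share the same low M1B26 libraries, so these values describe a shared step and nothing more. ADD2 held 33 ± 0.784 CPM in CT, 37 ± 2.75 in MC26 and no count in M1B26 (SD, n = 3), and ZNF302 held 2.75 ± 0.867, 2.3 ± 0.18 and no count. SHISAL1 stood at 5.02 ± 0.686, 4.38 ± 1.91 and 0.109 ± 0.0317 CPM, and ITGA4 at 15.8 ± 1.17, 14.9 ± 1.44 and 3.56 ± 0.51. ADGRG2 stood at 16.2 ± 0.908, 17.3 ± 1.09 and 3.96 ± 0.618. The 5 genes lie on chromosomes 2, X, 19, 22 and 2, and none on chromosome 5.

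The rest of the microtubule machinery was read from a list of 102 symbols, of which 100 had counts and 86 were tested. In MC26 against CT 34 of 86 (39.5%, against 38.7% of all genes) were called, 25 higher and 9 lower, with a median of 0.09 against 0 for all genes. In M1B26 against CT 49 (57%, against 48.9%) were called, 27 higher and 22 lower (median 0.09). In M1B26 against MC26 36 (41.9%, against 39.5%) were called, 14 higher and 22 lower (median -0.05). The splits against CT moved with the scaling. On total counts they were 18 higher and 13 lower in MC26 and 23 and 25 in M1B26, and with the length and GC offsets 37 and 9 in MC26 and 35 and 20 in M1B26. Of all called genes 48.5% in MC26 and 51.5% in M1B26 were higher with TMM factors. On total counts these shares were 35.8% and 39.6%, and with the offsets 51% and 51.9%. The count for the list in MC26 was 22 without CT replicate 1, where 4524 of 15959 genes were called, against 6081 of 15717 with all libraries. The genes named by rule are the 3 highest and 3 lowest called in each comparison among genes whose mean reached 1 CPM, and any others were chosen after their values were seen. Below that level TUBA8 (mean 0.4 CPM) was at 2.36 in MC26 and 2.43 in M1B26 against CT, and MAP7D2 (mean 0.214 CPM) at -1.76 and -2.30.

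Tubulins were mostly higher in both transformed lines. Of 16 tested 11 rose and 0 fell in MC26 against CT (median 0.45), and 10 rose and 1 fell in M1B26 (median 0.52). The 16 hold alpha- and beta-tubulins, the subunits of the polymer, and the gamma-, delta- and epsilon-tubulin genes TUBG1, TUBG2, TUBD1 and TUBE1. Of these last TUBG1 (0.33) rose in MC26, and TUBG1 (0.50), TUBG2 (0.54) and TUBD1 (0.97) rose in M1B26. TUBG1, TUBG2 and TUBD1 lie on chromosome 17, where 6 of the 7 tested genes of the list were higher in M1B26 than in CT. The part of the chromosome in the tubulin count and median was not tested. Of all genes 18.8% were called higher in MC26 and 25.2% in M1B26. With total counts alone the counts were 10 and 0, and 10 and 1. In MC26 7 rose and 0 fell without CT replicate 1, and 7 rose and 1 fell without MC26 replicate 1. Fewer of all genes were called higher in those fits too, 2163 of 15959 and 2159 of 16057. With all libraries it was 2947 of 15717. TUBB3, the beta-tubulin used as a neuronal marker, stood at 77.7 ± 16.4 (SD, n = 3), 279 ± 73.4 and 202 ± 17.7 CPM in CT, MC26 and M1B26, log2 fold changes of 1.84 (edgeR adjusted p 2.97e-05) and 1.37 (edgeR adjusted p 0.000139). TUBB6 rose from 217 ± 29 to 439 ± 61.2 and 434 ± 10.7 CPM. TUBAL3 rose by 2.0 and 2.18. TUBA4A is counted among those that rose in MC26, at 0.41 (edgeR adjusted p 0.0484), a call lost in 7 of 9 fits without 1 library. It was also the tubulin that fell in M1B26, at -0.47 (edgeR adjusted p 0.0233), a call lost in 5 of 9 such fits (edgeR adjusted p up to 0.0893), and it was 0.88 lower on the log2 scale than in MC26, from 252 ± 58.8 to 137 ± 6.28 CPM. TUBA1B, the main alpha-tubulin here, rose by 0.31 and 0.36, the first lost in 3 of 9 such fits, and its reads may be shared with its near-identical relatives TUBA1A and TUBA1C.

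Relatives of STMN1 and DCLK1 included the largest rises of the list. STMN3, a membrane-bound stathmin of neurons, stood at 4.38 ± 0.703 (SD, n = 3), 28.4 ± 9.19 and 54.5 ± 8.9 CPM in CT, MC26 and M1B26. It rose by 2.66 in MC26 (SE 0.22, edgeR adjusted p 7.27e-06) and by 3.6 in M1B26 (SE 0.22, edgeR adjusted p 7.83e-07), whereas STMN1 was lower in MC26. RP1, a doublecortin-domain protein of photoreceptor cilia, rose from 0.113 ± 0.0222 to 1.63 ± 0.477 and 1.85 ± 0.263 CPM, log2 fold changes of 3.75 and 3.93. Its CT level, from 21 counts over the 3 libraries, lay at 0.0874 to 0.129 CPM, close to the floor. Both RP1 fold changes rest on that level and are imprecise, and its mean reached 1 CPM only through the transformed lines. DCLK2, the closest relative of DCLK1, was lower in M1B26, at 0.461 ± 0.0282 CPM against 1.04 ± 0.222 in CT (-1.22, edgeR adjusted p 0.000921). These were the 3 tested genes of 8 in the class.

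Plus-end proteins, which ride on growing microtubule ends, were mostly lower in M1B26. Of 11 tested 7 fell and 1 rose against CT (median -0.38), and the same numbers were seen against MC26 (median -0.27), while 2 rose and 2 fell in MC26 against CT. Of all genes 23.7% were called lower in M1B26 against CT and 18.4% against MC26. Without M1B26 replicate 2 only 4 fell and 0 rose against CT. Of all genes 2948 of 16014 were called lower in that fit, against 3729 of 15717 with all libraries. CLASP1 went from 113 ± 5.46 CPM (SD, n = 3) to 88.7 ± 2.46 and 59.5 ± 2.83 CPM in MC26 and M1B26, log2 fold changes of -0.35 and -0.93. CLIP1 was at -0.60 in M1B26 (edgeR adjusted p 0.000406) and at 0.02 in MC26 (edgeR adjusted p 0.884). The polymerase CKAP5 was at -0.40 in M1B26 (edgeR adjusted p 0.00167). CLIP2 fell most in MC26, from 24.6 ± 4.1 to 10.4 ± 0.274 CPM (-1.25), with 18.6 ± 1.71 in M1B26.

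Stabilising and structural proteins moved in both directions. Of 19 tested 4 rose and 1 fell in MC26 against CT, and 4 rose and 5 fell in M1B26, or 26.3% and 47.4% called against 38.7% and 48.9% of all genes. With the length and GC offsets 8 rose and 1 fell in MC26, and 7 rose and 5 fell in M1B26. Of all 15717 genes 7428 and 8276 were called with these offsets. Without CT replicate 2 6 rose and 2 fell in MC26, and 5 rose and 4 fell in M1B26, as they did without M1B26 replicate 1. MAPT, which encodes tau, was higher in M1B26, with 0.952 ± 0.106 (SD, n = 3), 0.786 ± 0.413 and 3.42 ± 0.421 CPM in CT, MC26 and M1B26. The log2 fold change was 1.82 against CT (edgeR adjusted p 0.000428) and 2.11 against MC26 (edgeR adjusted p 0.000378), so tau and MAP2, which share their repeat domain, differed in direction in M1B26. MAPT lies on chromosome 17. Of the 7 tested genes of the list on that chromosome 6 were higher in M1B26 than in CT (median 0.54), against 21 higher and 22 lower of the other 79 (median 0.07). The part of the chromosome in the MAPT result was not tested. MAP1LC3A, whose product LC3 was first found as a MAP1 light chain, rose in M1B26 from 2.23 ± 0.156 to 4.38 ± 0.712 CPM (0.96, edgeR adjusted p 0.000531). MAP7D1, a relative of MAP7, rose by 0.72 in MC26 and 0.67 in M1B26.

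Severing proteins, kinases and tubulin-modifying enzymes gave few large changes. Of 8 severing genes 1 rose and 2 fell in MC26, and 0 rose and 2 fell in M1B26, or 37.5% and 25% called against 38.7% and 48.9% of all genes. The MC26 count was 1 without MC26 replicate 1, where 4545 of 16057 genes were called. With the offsets 2 rose and 3 fell in M1B26, where 8276 of 15717 genes were called. KATNAL2, a katanin-like gene, fell from 3.63 ± 0.112 CPM (SD, n = 3) to 2.15 ± 0.197 and 0.845 ± 0.0838 CPM in MC26 and M1B26, log2 fold changes of -0.75 and -2.10. The class of 10 tested genes for kinases of these proteins includes CDK5R1, which encodes an activator of CDK5 and rose in M1B26 (0.43). Of the 10 genes 3 rose and 1 fell in MC26, and 4 rose and 2 fell in M1B26 (40% and 60% called). MARK1 was at 1.0 and 1.04. The MC26 count of this class was 1 without MC26 replicate 1 and 2 without CT replicate 1 or MC26 replicate 2. Over all genes 4524 of 15959 were called without CT replicate 1 and 4852 of 16036 without MC26 replicate 2. With the offsets 6 genes of the kinase class rose and 0 fell in M1B26. Of 19 folding and modification genes 2 rose and 3 fell in MC26, and 6 rose and 4 fell in M1B26 (26.3% and 52.6% called). The balance in M1B26 turned with total counts, to 4 that rose and 7 that fell, and without CT replicate 1 (3 and 4) or M1B26 replicate 2 (2 and 4). In MC26 it was 1 and 6 with total counts, and 1 and 1 without CT replicate 1. Total counts also lowered the higher share of all called genes, from 51.5% to 39.6% in M1B26 and from 48.5% to 35.8% in MC26. Over all genes 6282 of 15959 were called in M1B26 without CT replicate 1 and 6325 of 16014 without M1B26 replicate 2, against 7688 of 15717 with all libraries. VASH1, a tubulin carboxypeptidase, fell in MC26 (-1.55, edgeR adjusted p 0.000433) and TTLL1, a glutamylase subunit, fell by -1.45 in M1B26 (edgeR adjusted p 0.000271).

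**Figure D5:**
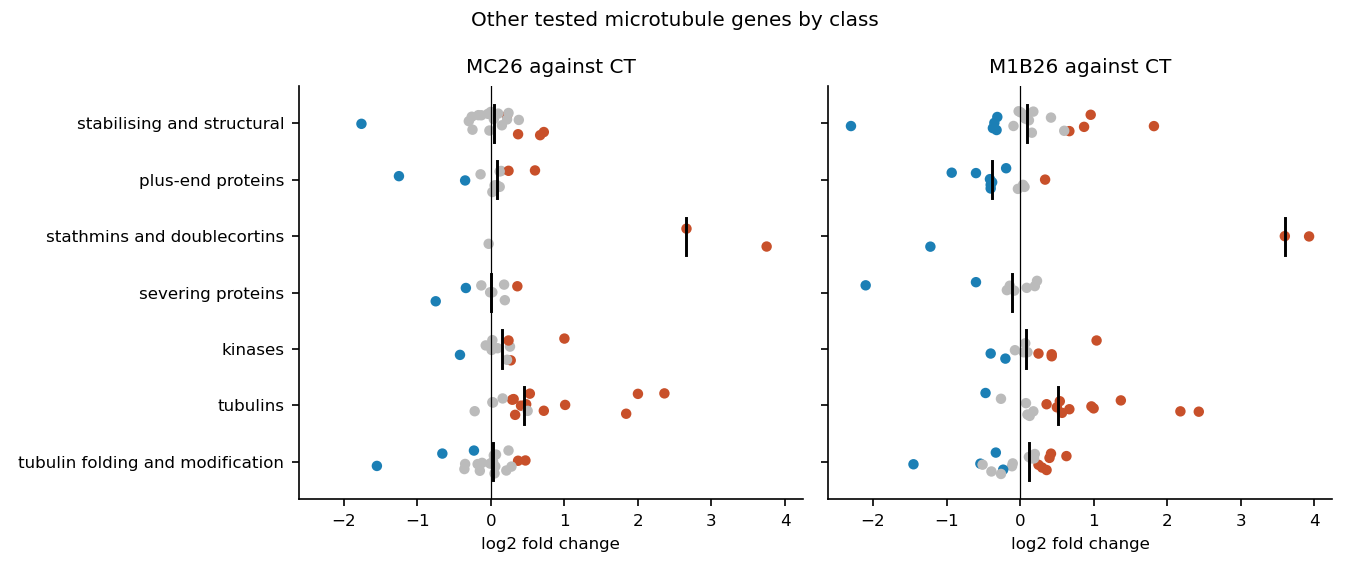
Log2 fold changes against CT (horizontal axes) of the 86 other tested microtubule genes by class, with a point for each gene, red for called higher, blue for called lower and grey for not called, and a black bar at the class median. Tubulins lie to the right in both lines (medians 0.45 and 0.52), and plus-end proteins lie to the left in M1B26 (median -0.38).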

How the data were processed

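Poly-A RNA libraries of 3 lines with 3 cultures each were analysed from the raw counts per gene symbol that the authors deposited. The submitters' processing notes name STAR 2.7.3a, Salmon 1.1.0 and the build GRCh38. The methods of the study name Salmon for quantification on protein-coding genes, but the deposited counts are whole numbers and include non-coding genes. Which program gave these counts is therefore unclear, and its use of strand is not given in the sources used here. The counts were whole numbers with different totals per library, and 0 value columns were left unmapped. Groups and replicate numbers came from the sample titles.

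Of 29997 symbols with a count, filterByExpr with its minimum count of 10 retained 15717. Libraries were scaled by TMM and all 9 were fitted with edgeR 4.0.16 in R 4.3.3 (glmQLFit and glmQLFTest, group only, 2-sided). A gene was called where its p, adjusted by Benjamini-Hochberg over all genes tested, was under 0.05. The SE is the absolute log2 fold change over the square root of F. Exonic, coding and MANE Select lengths and gene positions came from the GENCODE v44 annotation of GRCh38, and promoters from RefSeq (8 of 8 genes matched). The script was tested on simulated counts. Replicate libraries differed beyond sampling noise (chi-square per degree of freedom 10.5 to 57.7), so each counts as 1 sample.

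The members, gene lists and tests were chosen with earlier results of these data known. Named genes were the 8 members, the 4 nearest tested genes on each side of MAP1B, the 5 genes of at least 1 CPM most correlated with it, and in each comparison the 3 highest and 3 lowest called genes of the wider list with a mean of at least 1 CPM. Fibroblast markers were summed too and held 29.5 to 30.7, 5.87 to 48.4 and 14.9 to 24.7 CPM in CT, MC26 and M1B26 in turn. DCN made up most of each sum, with means of 29, 22.9 and 14 CPM. LUM went the other way, with 0.108, 0.128 and 5.11 CPM, and PDGFRA and PDGFRB stayed under 1 CPM. The part of these markers in the results was not tested. One further marker list is not reported here. The results were recomputed with total counts, RLE factors and DESeq2 1.42.0, with a minimum mean of 50 counts and without a filter, with only the 6 libraries compared, an adjusted p under 0.01, the replicate number as a block, offsets for length and GC content without and with that block, and leaving out each library. Shares by coding or MANE length were added after seeing the data. Protein sequences were not used here.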

Additional observations from a re-analysis of the deposited data

Results flagged for a closer look

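The results below were picked out because the 2 transformed lines differed in a direct edgeR test of M1B26 against MC26. Both lines had BMP2 and IL6, and they also differ in sorting, in cloning and in how fast they were reported to transform, so the test compares the lines. Among the 8 microtubule genes these were MAP1A at 0.84 (adjusted p 0.0214), MAP4 at -0.20 (adjusted p 0.0203) and STMN1 at 0.35 (adjusted p 0.00308). MAP1A was above CT and MAP4 below it by more in M1B26 than in MC26, and STMN1 lay nearer CT in M1B26. Of these, the STMN1 difference was called in all 9 fits that left out a library, and the other 2 were each lost in 4.

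Among the other microtubule genes named, MAPT at 2.11, VASH1 at 1.04, STMN3 at 0.94, TTLL1 at -0.79, TUBA4A at -0.88 and KATNAL2 at -1.35 were named for their large difference in this comparison, so their values are descriptions. CLIP2 was at 0.84, MAP1LC3A at 0.57 and JPT1, a microtubule-associated protein gene on chromosome 17, at 0.49. CLASP1 was at -0.58, CLIP1 at -0.62, TTLL5 at -0.59, CKAP5 at -0.26 and DCLK2 at -1.19. These genes too are listed here because they were called in this comparison, as were 39.5% of all genes tested. Of the genes next to MAP1B, BDP1 was at -0.54, TNPO1 at -0.32, MCCC2 at 0.23 and MRPS27 at 0.37. Leaving out single libraries lost the call of MCCC2 in 6 of 9 fits, of CKAP5 in 4, of MAP1LC3A in 3 and of TTLL1 in 2, and of 0 other genes of this paragraph. Single libraries were not tested for standing apart.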

How the results depend on the processing

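No called value changed sign. MAP2 in both lines and STMN1 in both comparisons with MC26 were called under every alternative run. MAP1A in M1B26 against CT was called wherever it was tested, but the minimum mean of 50 counts left it out. Under no filter 5 of 8 genes were called in MC26 against CT and 5 of 7 in M1B26 against MC26: MAP1B 0.46 and DCLK1 -1.33 in MC26 against CT, and MAP1S 0.31, MAP2 0.73 and DCLK1 1.24 in M1B26 against MC26, were then past the threshold, while MAP4 (-0.19) in M1B26 against MC26 and STMN1 (-0.18) in M1B26 against CT were not. At an adjusted p under 0.01 the wider list gave 19 calls in MC26 against CT and 23 in M1B26 against MC26, and 1 of the 7 genes tested was called in M1B26 against MC26, where MAP1A (0.84) and MAP4 (-0.20) missed it; MAP1A in MC26 (0.85) and STMN1 in M1B26 against CT (-0.20) missed it too. Of all genes 6391 and 6404 of 29997 were called in MC26 against CT and M1B26 against MC26 under no filter. At an adjusted p under 0.01 they were 3698 and 3685 of 15717. With total counts MAP1A in MC26 was 0.78 (edgeR adjusted p 0.0511) and MAP4 -0.19 (edgeR adjusted p 0.0228). In fits of only the 6 libraries compared MAP1A in MC26 (0.85) and STMN1 in M1B26 against CT (-0.20) lost their calls, and MAP1S in M1B26 against MC26 (0.30) gained one. With length and GC offsets MAP1S was called in M1B26 against CT (0.18) and against MC26 (0.26), MAP2 in M1B26 against MC26 (0.85), and MAP4 there was -0.08, not called. By MANE Select length the MAP1B share of the MAP1 family in M1B26 was 0.0939%. MAP1B was also smaller beside MAP1S on this length in the other lines. It was 0.643 against 10.9 CPM per kb in CT and 0.882 against 9.52 in MC26. Per kilobase of exon these were 0.605 against 7.3 and 0.828 against 6.34. The cause of these changes was not tested.

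Without single libraries the ranges were 22 to 35 calls for the wider list in MC26 against CT, and 1 to 4 of the 7 genes tested in M1B26 against MC26, the 1 without M1B26 replicate 1. Calls over all genes ran from 4524 to 6127 in MC26 against CT. In M1B26 against MC26 5150 of 16013 were called without M1B26 replicate 1. The ranges of log2 fold changes in MC26 against CT were 0.57 to 1.06 for MAP1A, 0.29 to 0.68 for MAP1B, -0.39 to -0.03 for MAP1S and -2.48 to -0.83 for DCLK1. STMN1 in M1B26 against CT ranged from -0.24 to -0.14. In M1B26 against MC26 they were 0.75 to 0.91 for MAP1A, 0.26 to 0.36 for MAP1S, 0.52 to 1.16 for MAP2, -0.21 to -0.18 for MAP4 and 0.74 to 2.39 for DCLK1.

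Replicate numbers are shared by the titles of the lines, but no shared deviation of libraries of equal number was seen (correlations -0.114 to 0.136 over the 9 pairs). With 3 libraries per line this cannot settle whether the cultures were paired. With the replicate block 5879, 7513 and 6009 genes were called in the 3 comparisons, against 6081, 7688 and 6215 without it. With the block and the length and GC offsets together MAP1S was 0.18 in M1B26 against CT and 0.25 against MC26, both called, MAP4 was -0.12 and -0.08 and STMN1 was -0.16 in M1B26 against CT, not called. Shares by the coding length of RefSeq proteins were not run. MAP1A, DCLK1, MAP1B in M1B26 and MAP2 in both transformed lines rested on under 100 counts per library, which limits their precision.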
